A study of Mus musculus with 8 samples.

Results

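The TAM receptors *Axl*, *Mertk* and *Tyro3* and the molecules that bridge apoptotic cells to phagocytes were followed in macrophages grown from the bone marrow (BMDMs) of *Tut7*-/- and wild-type mice, with and without LPS. The 10 genes were chosen by name, with earlier results of these data known, and are 3 TAM receptors, the TAM ligands *Gas6* and *Pros1*, the bridging protein gene *Mfge8* with the integrin subunit genes *Itgav* and *Itgb5*, and the large engulfment receptor genes *Stab1* and *Lrp1*. All 10 were among the 24539 genes of the deposited table, and all 10 passed the filter on low counts that left 11501 genes to be tested. The name of the group is one of function, and efferocytosis itself was not measured.

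Apoptotic cells are recognised by phosphatidylserine on their outer surface. *Gas6* and protein S (the product of *Pros1*) bind this lipid and engage the TAM receptor tyrosine kinases, which drive engulfment and also dampen Toll-like receptor signalling. MFG-E8 binds the same lipid and presents it to the integrin pairs αvβ3 and αvβ5, while stabilin-1 binds phosphatidylserine directly and LRP1 takes up cells coated with calreticulin and other ligands. In mouse macrophages MERTK is known as a receptor of resting and tolerogenic cells and AXL as one that inflammatory signals raise.

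The study asked how loss of TUT7, a terminal uridyltransferase that adds uridines to the 3′ ends of RNAs, changes the response to LPS, the Toll-like receptor 4 ligand of Gram-negative bacteria. BMDMs of male C57BL/6 mice at 7 weeks of age had been grown in medium conditioned by L929 cells for 7 days and then overnight in 10 ng/ml M-CSF, so all 4 groups shared this macrophage growth factor. The groups were untreated wild-type (WT-Ctrl), wild-type with LPS (WT-LPS), untreated *Tut7*-/- (KO-Ctrl) and *Tut7*-/- with LPS (KO-LPS), with 4 h at 100 ng/ml LPS and 2 libraries each. The *Tut7*-/- allele was a germline CRISPR/Cas9 deletion made with guides to a pair of introns, so every cell type in the cultures lacked it. Whether the libraries of one group are separate mice, separate cultures or repeats of one culture is not in the labels, so p-values measure only the spread between them, which may be technical.

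The libraries held 3767900 to 9394632 counts, and the shallowest was WT-LPS replicate 2. *Tut7* itself (listed as *Zcchc6*) had 427 to 1162 counts in the 4 wild-type libraries and 17 to 23 in the 4 *Tut7*-/- libraries, which matches the labels. The 2 libraries of a group correlated at 0.969 to 0.988 in log2 CPM (Pearson), lowest in KO-Ctrl. Summed over 12 markers, macrophage transcripts were at 19500 to 43000 CPM (depth-normalised counts, scaled by TMM) in every library. Summed over 14 markers, fibroblast and stromal transcripts were at 92.4 to 132 CPM in the wild-type and at 34.1 to 37.3 CPM in the *Tut7*-/- libraries. In the sum over 9 neutrophil markers no library passed 6.86 CPM, and *Ly6g*, *Elane* and *Mpo*, as well as *Cd3d* and *Pax5* of T and B cells, had no counts. Endothelial markers summed to 34.8 to 118 CPM, erythroid and megakaryocyte markers to 44.9 to 100 CPM, and dendritic cell markers to 0.369 to 1.87 CPM without and 14.1 to 23.9 CPM with LPS. In bulk RNA fewer cells of a type and less RNA per cell cannot be told apart.

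Levels were compared between genes in RPKM, which divides by transcript length. In WT-Ctrl the order of mean RPKM began with *Gas6* at 195 ± 14.4 (SD, n = 2), and *Stab1* at 120 ± 45.0, *Itgb5* at 110 ± 14.1 and *Lrp1* at 94.9 ± 48.4 followed with libraries that overlapped. *Mfge8* at 64.6 ± 5.95 and *Axl* at 58.9 ± 15.9 also overlapped, and so did *Mertk* at 16.2 ± 3.92 and *Itgav* at 13.9 ± 1.49, below *Pros1* at 21.3 ± 2.72. *Tyro3* was last at 0.0447 ± 0.0165 RPKM, near the limit of detection. Untreated wild-type BMDMs thus held much *Gas6* and integrin β5 RNA, moderate *Axl*, less *Mertk* and almost no *Tyro3*. After LPS the order in the wild-type changed, with *Axl* at 107 ± 1.25 RPKM and *Itgav* at 93.2 ± 14.3 RPKM at its head and *Gas6* at 37.8 ± 0.291 RPKM behind them. In KO-Ctrl the first 3 were *Gas6* at 291 ± 5.77, *Stab1* at 260 ± 37.5 and *Mfge8* at 246 ± 30.4 RPKM, while *Axl* was at 28.2 ± 0.395 RPKM. In KO-LPS *Mfge8* stood first at 83.8 ± 5.95 RPKM, and the libraries of *Itgav*, *Stab1*, *Axl*, *Gas6*, *Lrp1* and *Itgb5* overlapped between 36.4 and 56.3 RPKM.

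**Figure D1:**
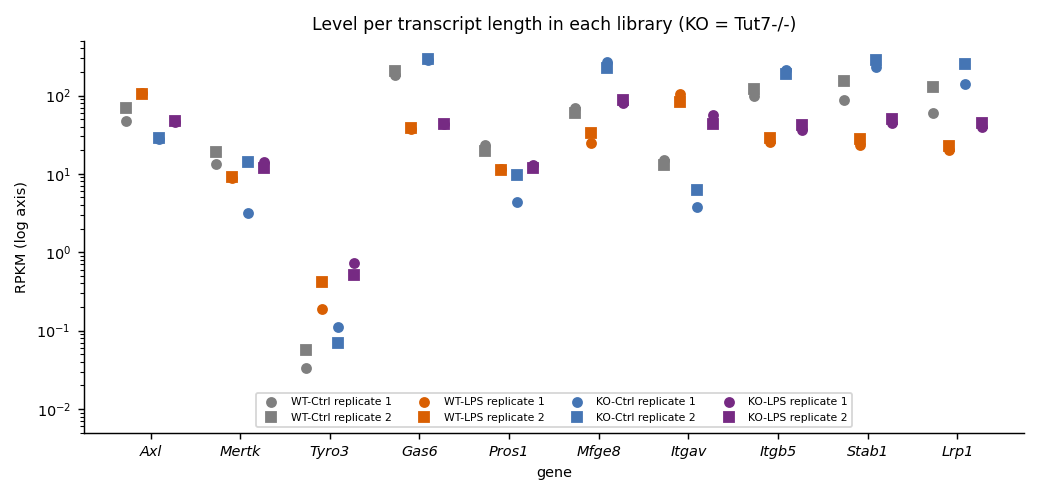
RPKM on a log axis for the 10 genes in each of the 8 libraries, with colour for the group and circles and squares for replicates 1 and 2 (KO is *Tut7*-/-). *Tyro3* lies below 1 RPKM in every library, and *Gas6* is the highest of the 10 in both untreated groups.

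LPS moved this set of genes apart in wild-type BMDMs. Of the 10 genes, 3 rose (*Axl*, *Itgav* and *Tyro3*) and 4 fell (*Gas6*, *Itgb5*, *Stab1* and *Lrp1*) (edgeR quasi-likelihood F test, Benjamini-Hochberg adjusted p below 0.05), and *Mertk*, *Pros1* and *Mfge8* did not pass. Of all tested genes 57.4% were called in this comparison, 27.0% higher and 30.4% lower, so that 7 of 10 was near the background. The median log2 fold change was -0.22 over the 10 genes and -0.17 over all tested genes.

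*Axl* was at 180 and 248 CPM in the WT-Ctrl libraries and at 714 and 674 CPM in the WT-LPS libraries. The groups did not overlap, and the rise was 1.70 on the log2 scale (SE 0.22, adjusted p = 8.6e-06, edgeR). *Itgav*, which encodes the αv chain that pairs with several β subunits, went from 78.7 and 63.0 CPM to 951 and 734 CPM, an increase of 3.57 (SE 0.262, adjusted p = 1.5e-08). This was the largest estimate among the 10 genes, but the interval of *Tyro3* (log2 fold change 3.31, 95% interval 1.47 to 5.16) spans it. *Tyro3* gave 1 and 2 counts in WT-Ctrl but 5 and 7 in WT-LPS, a ratio of 10.7 per effective library size (95% exact interval 2.89 to 59.2, counting error only). It entered the test through its LPS libraries, so a difference was built into its selection, and its call was lost without WT-LPS replicate 2 (adjusted p = 0.056).

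*Gas6* fell from 358 and 371 CPM to 127 and 124 CPM, by 1.54 on the log2 scale (SE 0.203, adjusted p = 1.1e-05, edgeR). *Pros1*, the other TAM ligand, was at 57.3 and 44.6 CPM without and at 49.2 and 46.9 CPM with LPS, and its libraries overlapped (log2 fold change -0.08, 95% interval -0.661 to 0.492). Thus of the TAM ligand genes only *Gas6* was called. *Itgb5*, the β5 partner of αv, fell from 245 and 274 CPM to 110 and 117 CPM (log2 fold change -1.19, adjusted p = 0.00026), the opposite direction to *Itgav*. *Stab1* fell from 528 and 848 to 248 and 277 CPM and *Lrp1* from 675 and 1340 to 387 and 420 CPM, both without overlap (log2 fold changes -1.39 and -1.32, adjusted p = 0.00014 and 0.0012). The *Lrp1* value rested partly on 1 library, and was -0.75 (adjusted p = 0.034) without WT-Ctrl replicate 2.

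*Mertk* was at 44.8 and 59.0 CPM in WT-Ctrl and at 50.9 and 50.5 CPM in WT-LPS, with a log2 fold change of -0.04 and a 95% interval from -0.896 to 0.826. The interval leaves room for a change of nearly 1 log2 unit either way. *Mfge8* was at 104 and 85.0 CPM without and at 65.5 and 83.2 CPM with LPS (log2 fold change -0.35, adjusted p = 0.22). The values of these uncalled genes moved with the scaling, and so did those of the called genes, which kept their calls. With library size without TMM the rises were smaller, at 0.86 for *Axl*, 2.74 for *Itgav* and 2.52 for *Tyro3*. The falls were larger, at -2.375 for *Gas6*, -2.03 for *Itgb5*, -2.23 for *Stab1* and -2.17 for *Lrp1*. *Pros1* also moved with length and GC content in the model (-0.55, adjusted p = 0.013, called lower). Without TMM the median of all genes moved from -0.17 to -1.0, and with it *Pros1* (-0.91, adjusted p = 0.024) and *Mfge8* (-1.17, adjusted p = 0.00064) were called lower, while *Mertk* was not called under any of 20 alternatives (log2 fold change -0.88 to 0.17).

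**Figure D2:**
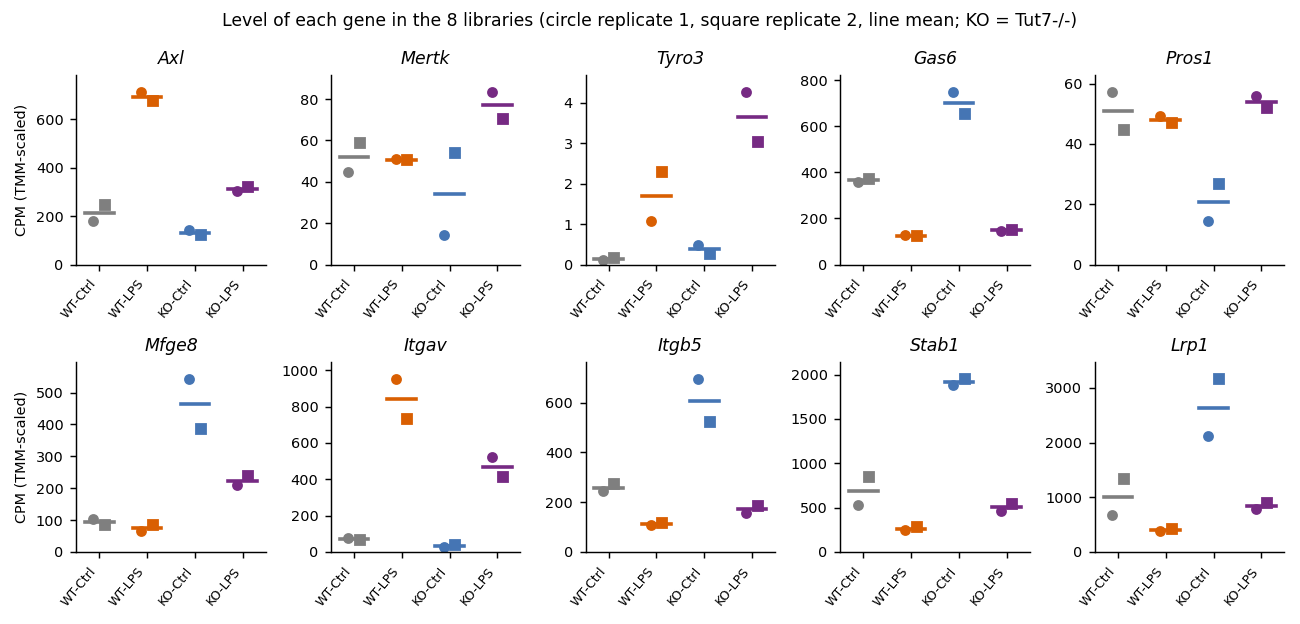
CPM (scaled by TMM, linear axes from 0) of each gene in the 8 libraries, with circles for replicate 1, squares for replicate 2 and a line at the group mean. *Axl* and *Itgav* are highest in WT-LPS, *Gas6*, *Mfge8*, *Itgb5*, *Stab1* and *Lrp1* are highest in KO-Ctrl, and the KO-Ctrl libraries of *Mertk* lie far apart at 14.1 and 53.7 CPM.

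In *Tut7*-/- BMDMs all 10 genes were called for LPS, 5 higher (*Axl*, *Mertk*, *Tyro3*, *Pros1* and *Itgav*) and 5 lower (*Gas6*, *Mfge8*, *Itgb5*, *Stab1* and *Lrp1*). Of all tested genes 68.0% were called, 34.8% higher and 33.2% lower. *Tyro3* entered this test through its LPS libraries as well, and with at least 10 counts required in every library it was not tested, *Mertk* was not called and the count was 8, 3 higher and 5 lower. The 7 genes called in the wild-type were called in the same direction here. *Itgav* went from 26.5 and 37.2 CPM to 523 and 410 CPM, and *Axl* from 142 and 123 CPM to 305 and 320 CPM (log2 fold changes 3.87 and 1.24, adjusted p = 6.3e-09 and 0.00013, edgeR). *Gas6* fell from 749 and 653 CPM to 146 and 152 CPM, by 2.23 on the log2 scale (SE 0.206, adjusted p = 1.6e-07). *Itgb5*, *Stab1* and *Lrp1* fell with it, with log2 fold changes of -1.83, -1.93 and -1.65. *Tyro3* went from 4 and 3 counts to 27 and 22 counts, a ratio of 10.0 (95% exact interval 4.50 to 26.2).

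The other 3 genes passed in *Tut7*-/- and not in wild-type cells. *Pros1* was at 14.6 and 26.8 CPM without LPS and at 56.0 and 52.0 CPM with it (log2 fold change 1.37, SE 0.274, adjusted p = 0.00042). *Mfge8* fell from 542 and 385 CPM to 211 and 238 CPM (log2 fold change -1.05, SE 0.229, adjusted p = 0.00089). Both LPS calls were lost when transcript length and GC content entered the model (*Pros1* 0.05, adjusted p = 0.82, and *Mfge8* -0.17, adjusted p = 0.33). *Mertk* had 14.1 and 53.7 CPM in KO-Ctrl and 83.5 and 70.4 CPM in KO-LPS (log2 fold change 1.17, SE 0.401, adjusted p = 0.018). Its call held in 10 of 19 alternatives and was lost without KO-Ctrl replicate 1 (0.49, adjusted p = 0.064) and without KO-LPS replicate 1 (1.01, adjusted p = 0.11), while without KO-Ctrl replicate 2 the log2 fold change was 2.44.

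**Figure D3:**
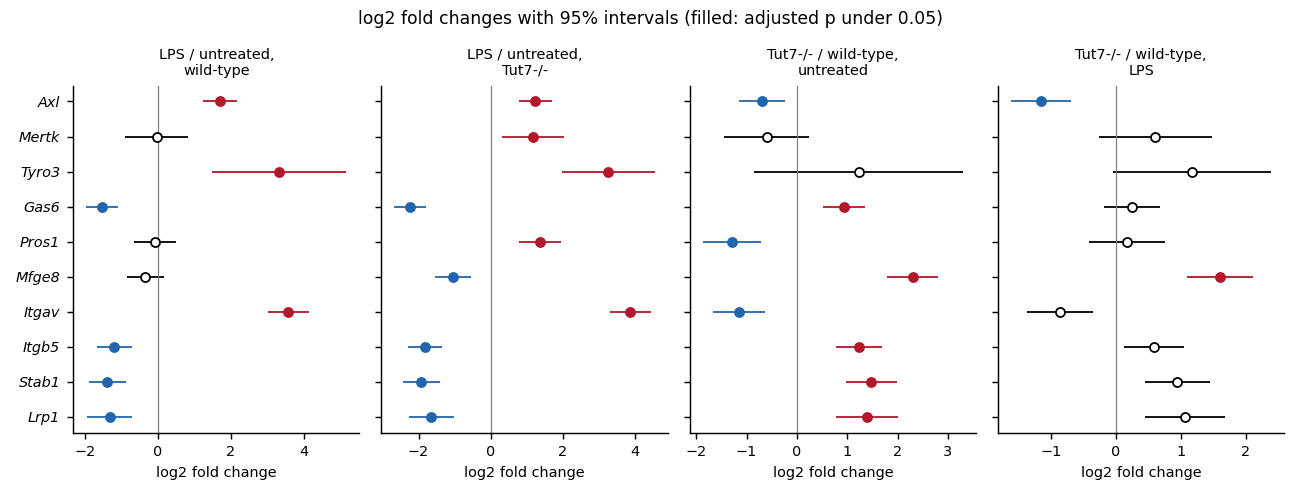
log2 fold changes of the 10 genes with 95% intervals from edgeR in 4 comparisons, filled where the adjusted p was under 0.05 (red higher, blue lower), and with a separate horizontal scale in each panel. The 2 panels on the left show LPS against untreated cells and the 2 on the right *Tut7*-/- against wild-type cells, where 8 genes are filled without LPS and 2 (*Axl* and *Mfge8*) with it.

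Whether the LPS response itself differed between the genotypes was tested as an interaction. *Pros1* was the one gene of the 10 that passed, with a response 1.46 higher on the log2 scale in *Tut7*-/- than in wild-type BMDMs (SE 0.384, 95% interval 0.637 to 2.27, adjusted p = 0.046, edgeR), against 4.50% of all tested genes, 4.06% higher and 0.435% lower. In the wild-type the 4 *Pros1* libraries lay within 44.6 and 57.3 CPM, and in *Tut7*-/- cells the untreated libraries were lower than every other library. The call held in 8 of 18 alternatives. It was lost without WT-Ctrl replicate 1 or 2 (adjusted p = 0.18 and 0.063), WT-LPS replicate 1 or 2 (0.16 and 0.25) and KO-LPS replicate 1 or 2 (0.23 and 0.10), and with length and GC content in the model (0.60, adjusted p = 0.19). *Mertk* had a difference of 1.21 (95% interval -0.00487 to 2.41, adjusted p = 0.21) that became 2.49 (adjusted p = 6.7e-07) without KO-Ctrl replicate 2. For the other 8 genes the difference did not pass, with values from -0.70 for *Mfge8* to 0.29 for *Itgav*. The 95% interval of each reaches past 1 log2 unit, among them *Gas6* (-1.29 to -0.0968), *Itgb5* (-1.29 to 0.00915) and *Mfge8* (-1.4 to -0.00527).

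Without LPS the loss of TUT7 went with lower RNA of the TAM receptor *Axl* and higher RNA of *Gas6*, the bridging protein MFG-E8 and the large engulfment receptors. Of the 10 genes 5 were higher (*Gas6*, *Mfge8*, *Itgb5*, *Stab1* and *Lrp1*) and 3 lower (*Axl*, *Pros1* and *Itgav*) in KO-Ctrl than in WT-Ctrl. Of all tested genes 37.0% were called, 14.8% higher and 22.2% lower. The median log2 fold change was 1.08 over the 10 genes and 0.01 over all tested genes.

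*Mfge8* had the largest difference, with 104 and 85.0 CPM in WT-Ctrl and 542 and 385 CPM in KO-Ctrl, an increase of 2.30 on the log2 scale (SE 0.238, adjusted p = 0.00011, edgeR). *Stab1* was at 528 and 848 CPM in the wild-type and at 1880 and 1950 CPM in the *Tut7*-/- libraries (1.48, SE 0.237, adjusted p = 0.00067). *Lrp1* was at 675 and 1340 against 2120 and 3160 CPM (1.39, SE 0.288, adjusted p = 0.0028). In all 3 genes the lower *Tut7*-/- library stood above the higher wild-type library. *Itgb5* (245 and 274 against 695 and 522 CPM, log2 fold change 1.23) and *Gas6* (358 and 371 against 749 and 653 CPM, log2 fold change 0.94) were separated in the same way. These 5 calls held in 19 of 19 alternatives each. 

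*Pros1* was lower in KO-Ctrl, with 14.6 and 26.8 CPM against 57.3 and 44.6 CPM (log2 fold change -1.29, SE 0.272, adjusted p = 0.0031, edgeR). *Itgav* was at 26.5 and 37.2 against 78.7 and 63.0 CPM (-1.15, SE 0.246, adjusted p = 0.0034), and *Axl* at 142 and 123 against 180 and 248 CPM (-0.69, SE 0.216, adjusted p = 0.022). The libraries of the groups did not overlap for these 3 genes. The *Axl* call was lost without WT-Ctrl replicate 2 (-0.44, adjusted p = 0.17) and without WT-LPS replicate 1 or 2 (adjusted p = 0.053 each), and held in 14 of 19 alternatives. *Mertk* overlapped, with 14.1 and 53.7 CPM in KO-Ctrl against 44.8 and 59.0 CPM in WT-Ctrl (-0.60, adjusted p = 0.23), and was called lower without KO-Ctrl replicate 2 (-1.87, adjusted p = 6.5e-07). *Tyro3* had 7 counts in KO-Ctrl and 3 in WT-Ctrl, a ratio of 2.46 (95% exact interval 0.562 to 14.8), so that no difference was detectable at this depth.

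The KO-Ctrl differences followed the base composition of the transcripts across the whole table. Over 11438 genes the log2 fold change without LPS correlated with transcript GC content at a Pearson r of 0.614, a description over genes that share the same libraries. The median ran from -1.17 in the genes with the lowest GC (40.1%) to 0.66 in those with the highest (61.4%). Among the 10 genes the 4 with negative values had the lowest GC content (*Pros1* 43.4%, *Itgav* 43.6%, *Mertk* 48.1% and *Axl* 54.2%), and the 5 called higher were at 56.2% to 57.9%. With length and GC content in the model, *Pros1* (-0.41, adjusted p = 0.10) and *Itgav* (0.10, adjusted p = 0.70) were no longer called. *Mfge8* (1.66), *Lrp1* (1.70), *Stab1* (1.5), *Itgb5* (0.74) and *Gas6* (0.37, adjusted p = 0.039) remained called higher and *Axl* remained called lower (-0.81, adjusted p = 0.0014). With transcript length alone in the model *Axl* was not called (-0.13, adjusted p = 0.63) and *Itgav* was not called either (-0.44, adjusted p = 0.075), while *Lrp1* (2.63) and *Stab1* (2.37) were further from 0 than in the reported fit. The length model also moved the LPS responses in *Tut7*-/- cells, to 0.53 for *Axl*, -3.11 for *Lrp1* and -3.04 for *Stab1*. With LPS the same correlation over genes was 0.146, and it was -0.474 for the difference of LPS responses.

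**Figure D4:**
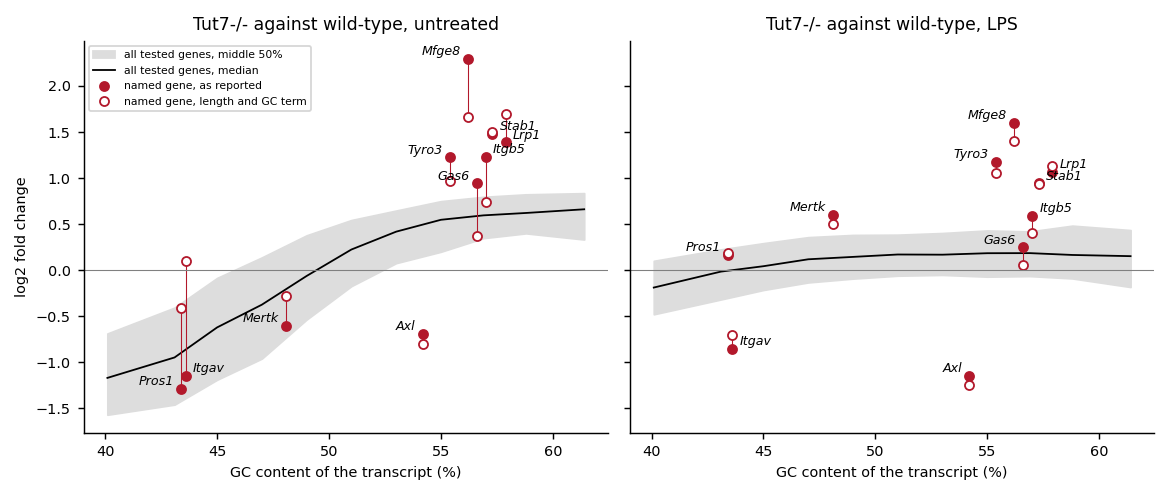
log2 fold change of *Tut7*-/- against wild-type cells by GC content of the transcript, without LPS (left) and with LPS (right). The line and band are the median and middle 50% of all tested genes in 11 bins of GC content, filled points the 10 genes as reported and open points the same genes with length and GC content in the model. Without LPS the median rises with GC content, *Pros1* and *Itgav* move towards 0 in the adjusted model, and *Mfge8*, *Stab1*, *Lrp1* and *Axl* stay away from it.

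With LPS 2 of the 10 genes were called between the genotypes, *Mfge8* higher and *Axl* lower in *Tut7*-/- BMDMs, against 1.40% of all tested genes, 0.626% higher and 0.774% lower. *Mfge8* was at 65.5 and 83.2 CPM in WT-LPS and at 211 and 238 CPM in KO-LPS (log2 fold change 1.60, SE 0.238, 95% interval 1.09 to 2.10, adjusted p = 0.0032, edgeR). *Axl* was at 714 and 674 CPM in WT-LPS and at 305 and 320 CPM in KO-LPS (-1.15, SE 0.217, 95% interval -1.61 to -0.689, adjusted p = 0.015). In LPS-treated *Tut7*-/- cells *Axl* was thus 2.22-fold lower and *Mfge8* 3.03-fold higher. *Mfge8* and *Axl* kept their direction and size across 20 alternatives (1.40 to 1.76 and -1.25 to -1.12), including the length and GC model. The *Axl* call was lost without WT-LPS replicate 1 or 2 (adjusted p = 0.26 and 0.19) and without KO-LPS replicate 1 or 2 (0.20 and 0.29), and the *Mfge8* call without WT-LPS replicate 1 or 2 (0.19 and 0.068) and KO-LPS replicate 2 (0.076).

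For each of the 10 genes the libraries of WT-LPS and KO-LPS did not overlap in CPM, 8 higher and 2 lower (*Axl* and *Itgav*) in *Tut7*-/- cells. Among all tested genes 55.7% did not overlap, 35.7% higher and 20.0% lower, and with 2 libraries a group an exact permutation test cannot go below p = 0.33. *Lrp1* was at 387 and 420 against 788 and 899 CPM (log2 fold change 1.07, adjusted p = 0.087), and *Stab1* at 248 and 277 against 465 and 544 CPM (0.94, adjusted p = 0.062). *Itgav* was at 951 and 734 against 523 and 410 CPM (-0.85, adjusted p = 0.099). These 3 values lay close to the threshold, and were called in 10, 10 and 8 of 20 alternatives, length and GC content among them. *Itgb5* (0.59), *Mertk* (0.60), *Gas6* (0.25) and *Pros1* (0.17) did not pass, and *Tyro3* had 49 counts in KO-LPS against 12 in WT-LPS (ratio 2.30, 95% exact interval 1.20 to 4.74, adjusted p = 0.42).

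Stromal transcripts moved with genotype as well. Of 14 fibroblast and stromal markers 10 were tested, and 5 were lower in *Tut7*-/- cells without LPS (*Col1a1*, *Col1a2*, *Acta2*, *Sparc* and *Tagln*), 50% against 22.2% of all tested genes. With LPS 4 were lower, 40% against 0.774% of all tested genes, for example *Acta2* at -3.48 (adjusted p = 3.2e-05) and *Col1a1* at -2.53 (adjusted p = 0.0022). Of 12 macrophage markers 6 were higher without LPS, among them *Csf1r* at 0.72 (adjusted p = 0.017), and 2 lower (*Mrc1* and *Cd163*). As shares these were 50% and 16.7%, against 14.8% and 22.2% of all tested genes. The part of either in the *Axl* and *Mfge8* differences was not tested.

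Over the 8 libraries the levels of the 10 genes fell into shared patterns, given here as a description since the libraries are of only 4 groups. Pearson correlations of log2 CPM were 0.979 between *Itgb5* and *Stab1*, 0.969 between *Gas6* and *Itgb5* and 0.93 between *Gas6* and *Stab1*. *Axl* and *Itgav* correlated at 0.92, *Mertk* and *Pros1* at 0.839, and *Gas6* and *Itgav* at -0.988. *Axl* and *Mertk* correlated at 0.381 with each other. *Mertk* was at 14.1 CPM in KO-Ctrl replicate 1 and at 44.8 to 83.5 CPM in the others, so 1 library weighs heavily in its correlations. *Pros1* was lowest in that library too, at 14.6 CPM. The tested genes most like *Axl* were *Lif* (0.991), *Col4a2* (0.989), *Zfp712* (0.98), *Nbeal1* (0.974) and *Plekha5* (0.974). Those most like *Mertk* were *Heatr5a* (0.979), *Atf6* (0.978), *Gm15800* (0.977), *Kdm2a* (0.971) and *Ep300* (0.97). *Lif*, a cytokine gene, was at 0.285 CPM in WT-Ctrl, 2.34 in WT-LPS, 0.0615 in KO-Ctrl and 0.797 in KO-LPS.

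Promoter sequences were read from RefSeq (GRCm38.p6, windows around each transcription start) for all 10 genes, and those of *Stab1* and *Lrp1* are shown in part. Both were called in the same direction in 3 comparisons, as were *Gas6* and *Itgb5*, which are not shown. The match shown is the PU.1 core in *Stab1* and the GC box in *Lrp1*. The GC box GGGGCGGGG, a site known for Sp1, was found on either strand in 6 of the 10 windows (*Axl*, *Gas6*, *Itgb5*, *Lrp1*, *Mertk* and *Pros1*) and in 11.4% of 32851 windows. The 10 windows held 57.3% (*Stab1*) to 73.3% (*Tyro3*) GC, the 32851 were not matched to them in GC, and enrichment was not tested. The core GAGGAA, which the macrophage factor PU.1 is known to bind, was found in 4 (*Axl*, *Itgav*, *Mfge8* and *Stab1*) and in 28.3% of windows. The interferon-stimulated response element and the AP-1 letters TGANTCA were in none of the 10 and in 3.44% and 7.81% of windows. Genes that rose and genes that fell with LPS both held the GC box and both held the PU.1 core. The stretches around the match in *Lrp1* (chr10:127621230-127621259, minus strand) and in *Stab1* (chr14:31168654-31168683, minus strand) are shown 5′ to 3′ with the match in capitals, and in *Lrp1* the GC box reads as its reverse complement.
Lrp1: ttttttctttCCCCGCCCCttccctccttc
Stab1: gctgatacgcagGAGGAAatcctggtgggt

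The gene loci in mm10 were chr7:25756500-25788924 for *Axl*, chr2:128698915-128803162 for *Mertk*, chr2:119797740-119818104 for *Tyro3*, chr8:13465374-13494535 for *Gas6*, chr16:62854307-62929346 for *Pros1*, chr7:79133768-79149060 for *Mfge8*, chr2:83722303-83806917 for *Itgav*, chr16:33829665-33949338 for *Itgb5*, chr14:31139017-31168651 for *Stab1* and chr10:127538157-127621148 for *Lrp1*. *Stab1* shares 108 bases with *Nt5dc2* (44 to 882 counts a library) and *Gas6* overlaps *Tmem255b* (0 counts), so reads of the *Stab1* end could be split where strand was not used. *Lrp1* and *Stab1* also overlap lncRNA genes that the table does not list under those names.

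Beyond the 10 genes, 129 genes of the same process were listed in 11 groups and 117 were tested. LPS raised 42 and lowered 35 of them in wild-type and raised 54 and lowered 38 in *Tut7*-/- BMDMs. As shares of the 117 these were 35.9% and 29.9% in the wild-type, against 27.0% and 30.4% of all tested genes, and 46.2% and 32.5% in *Tut7*-/- cells, against 34.8% and 33.2%. *Tut7*-/- cells had 32 higher and 25 lower without LPS, 3 higher and 3 lower with LPS, and 8 higher and 2 lower differences of response. These were 27.4% and 21.4% without LPS (14.8% and 22.2% of all tested genes), 2.56% each with LPS (0.626% and 0.774%), and 6.84% and 1.71% for the difference (4.06% and 0.435%). With length and GC content in the model, 28 listed genes were higher and 17 lower without LPS (1657 and 1155 of all 11438 tested). With LPS they were 9 and 10 (239 and 385 of all), and for the difference 6 and 8 (204 and 282 of all). Values of single listed genes below are from the reported fit, without this adjustment. In the reported fit the median log2 fold change of the 117 genes was 0.00 without and 0.14 with LPS between the genotypes, against 0.01 and 0.10 over all tested genes. Listed genes near the floor in a group passed the filter through the groups where they were high, so a difference was built into their selection.

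Among 7 tested phosphatidylserine receptors outside the 10, LPS lowered 5 and raised 1 in the wild-type (71.4% and 14.3%, against 30.4% and 27.0% of all tested genes). *Cd300lb*, an activating receptor of myeloid cells, fell from 305 to 4.30 CPM (log2 fold change -6.06), and its relative *Cd300a* from 332 to 26.1 CPM (-3.68). *Timd4*, the tethering receptor TIM-4, was at 0 CPM in WT-Ctrl and 1.80 CPM in WT-LPS, and entered the test through its LPS libraries. *Stab2*, the paralogue of *Stab1*, fell from 0.879 to 0.109 CPM. *Cd300lb* stayed higher in KO-LPS at 22.9 CPM (log2 fold change against wild-type 2.32, adjusted p = 0.0018), and its LPS response differed by 2.19 (adjusted p = 0.02). Without LPS *Stab2* (2.23) and *Trem2* (0.95) were higher and *Havcr2*, which encodes TIM-3, was lower (-2.06). *Stab2* was at 0.88 and 0.877 CPM in WT-Ctrl and at 3.93 and 4.43 CPM in KO-Ctrl. It entered the test through KO-Ctrl, so a difference was built into its selection.

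Among 10 tested opsonins and bridging molecules LPS raised *C3* (4.79), *Anxa1* (1.67) and *Anxa5* (0.68) and lowered *Thbs1* (-1.32) in the wild-type. Without LPS the complement genes *C1qa* (1.48), *C1qb* (0.88) and *C1qc* (1.03), whose product coats apoptotic cells, were higher in *Tut7*-/- cells, and *Thbs1* (-2.48) and fibronectin *Fn1* (-1.46) were lower. *Fn1*, which fibroblasts also make, was lower in KO-LPS than in WT-LPS too (-1.73, adjusted p = 0.02, edgeR). *Thbs1*, thrombospondin 1, was at 145 and 57.9 CPM without and with LPS in the wild-type and at 25.8 and 73.8 CPM in *Tut7*-/- cells, a difference of response of 2.83 (adjusted p = 0.011).

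Of 8 other integrin subunits 4 rose and 1 fell with LPS in the wild-type (50% and 12.5%, against 27.0% and 30.4% of all tested genes). *Itgb8*, which entered the test through its LPS libraries, rose from 0 to 26.7 CPM, and *Itga4* rose by 3.85. *Itgb3*, the β3 partner of αv, entered through its untreated libraries and fell from 16.9 to 0.326 CPM. Both β partners of αv in MFG-E8 binding, *Itgb5* and *Itgb3*, thus fell as *Itgav* rose. Without LPS *Itgax* (1.48), *Itgb2* (0.69) and *Itga5* (0.77) were higher and *Itgb1* (-0.91) and *Itga4* (-1.48) lower in *Tut7*-/- cells. With LPS *Itgb8* was lower (26.7 against 9.36 CPM, log2 fold change -1.51, adjusted p = 0.031).

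Among 10 scavenger receptors *Msr1* rose by 4.88 and *Olr1* from 0 to 46.2 CPM with LPS in the wild-type, and *Cd163* (-3.77) and *Scarb1* (-2.05) fell. *Olr1* entered the test through its LPS libraries and *Cd163* through its untreated ones. *Scarb1*, the HDL receptor, was higher in *Tut7*-/- cells without (1.46) and with LPS (1.26, adjusted p = 0.018). *Cd36* (-1.53), *Mrc1* (-1.56), *Colec12* (-1.04) and *Cd163* (-1.18) were lower without LPS, and the responses of *Cd36* (1.29) and *Mrc1* (1.89) differed. Among 8 tested relatives of LRP1, LPS raised *Lrp10* (1.75) and *Lrp4* (1.07) and lowered *Lrp5* (-2.07) and *Lrp12* (-1.90). *Lrp5* (1.20), *Lrp10* (0.92) and the LRP1 chaperone gene *Lrpap1* (0.85) were higher in KO-Ctrl like *Lrp1*, while *Lrp6* (-1.62) was lower.

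Of 18 tested genes of engulfment signalling 6 rose and 1 fell with LPS in the wild-type (33.3% and 5.56%, against 27.0% and 30.4% of all tested genes). *Src* (5.72) and *Crkl* (1.64) were at the top and *Elmo2* (-0.98) was the one that fell. Without LPS *Src* (1.18) and *Rhog* (0.68) were higher and *Crk* (-1.52), *Dock2* (-0.82) and *Vav3* (-1.48) lower in *Tut7*-/- cells, and the responses of *Crk* (1.59) and *Src* (-1.41) differed. Among 10 tested genes of TAM signalling and feedback LPS raised 6 in the wild-type (60%, against 27.0% of all tested genes). They were led by *Socs3* (8.39) and *Socs1* (8.16), the feedback inhibitors of cytokine signalling. LPS lowered *Plcg1* (-2.72) and *Ranbp9* (-0.77), 20% against 30.4% of all tested genes. Between the genotypes with LPS the 10 genes lay from -0.53 (*Pik3r1*) to 0.85 (*Plcg1*) and none passed, while without it *Pik3r1* (-2.10) and *Ranbp9* (-0.97) were lower in *Tut7*-/- cells.

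Sheddases that release soluble TAM receptors from the cell surface were among 8 shedding genes. *Adam17*, the main sheddase of MERTK, rose with LPS in the wild-type by 1.33 and in *Tut7*-/- cells by 2.57, and *Adam10*, known to cleave AXL, had 0.24 and 1.17. In the wild-type *Rhbdf2* (3.85) and *Timp3* (2.66) rose most and *Adam15* (-0.74) fell. Without LPS *Adam10* (-1.07), *Adam17* (-1.53) and *Adam9* (-1.51) were lower and *Adam8* (0.86), *Adam15* (0.92) and *Rhbdf2* (0.65) higher in *Tut7*-/- cells, and the response of *Adam9* differed (1.70, adjusted p = 0.024).

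Of 14 genes of cargo degradation and LC3-associated phagocytosis 4 rose and 7 fell with LPS in the wild-type (28.6% and 50%, against 27.0% and 30.4% of all tested genes). *Cybb* (2.91) and *Rab5a* (2.0) were highest and *Dnase2a* (-1.99) and *Atg7* (-1.90) lowest. *Rubcn* (0.69), *Atg7* (0.79), *Dnase2a* (0.87) and *Ctsd* (1.06) were higher and *Cybb* (-1.07) and *Rab5a* (-1.36) lower in KO-Ctrl, and the response of *Rab5a* differed (1.24). *Uvrag*, which LPS lowered in both genotypes (-1.57 and -0.58), was higher in KO-LPS than in WT-LPS (1.17, adjusted p = 0.029, edgeR). Of 13 genes of lipid handling 7 fell with LPS in the wild-type (53.8%, against 30.4% of all tested genes), led by *Rxra* (-4.53) and *Pparg* (-2.75). *Tgm2* (1.74) and *Nr1h3* (0.81) rose (15.4%, against 27.0% of all tested genes). In KO-Ctrl *Apoe* (1.38), *Rxra* (1.06), *Nr1h3* (0.84), *Nr1h2* (0.84), *Rxrb* (0.81), *Ucp2* (0.69) and *Abcg1* (0.60) were higher and *Abca1* (-0.88) was lower. The liver X and retinoid X receptors named here are known to drive *Mertk* transcription in mouse macrophages, and *Mertk* itself did not pass in that comparison.

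Of 11 tested find-me and do-not-eat-me genes *Cd47* (2.17) and *Lilrb4a* (1.85) rose most and *S1pr1* (-4.23) and *Sirpa* (-2.11) fell most with LPS in the wild-type. In KO-Ctrl *Sirpa* (0.63), *P2ry6* (0.86) and *S1pr2* (1.04) were higher and *Gpr132* (-0.70), *Pecam1* (-1.84), *Cd24a* (-2.53) and *Lilrb4a* (-1.23) lower. *Cd24a* was lower in KO-LPS than in WT-LPS as well, at 0.433 against 3.93 CPM (-3.05, adjusted p = 0.023, edgeR). The response of *Lilrb4a* differed (1.27, adjusted p = 0.024, edgeR).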

How the data were processed

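The members and the related and marker lists were chosen with earlier results of these data known. The authors prepared poly(A) libraries, sequenced paired reads of 75 nt and mapped and counted them on mouse RefSeq RNA of mm10 with FANSe3. No source used here says whether strand was used. The deposited table of the authors holds raw read counts and RPKM per gene symbol, and a further sheet of RPKM was left out. Per the submitters' notes, processing involved edgeR and mm10.

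Tests were run on the counts with edgeR 4.0.16 (R 4.3.3). filterByExpr with the 4 groups left 11501 of 24539 genes, TMM scaled the libraries, and a robust quasi-likelihood model of 4 group means was fitted to all 8 libraries (4 residual degrees of freedom, biological coefficient of variation 18.5%). Called means a p below 0.05 after Benjamini-Hochberg adjustment over all tested genes. CPM are counts over the TMM-scaled library size, and SE is the log2 fold change over the root of the F statistic. Depth was 3767900 to 9394632 counts, and intervals on count ratios are exact conditional binomial (Clopper-Pearson) and cover counting error only. GC content was that of the longest GENCODE transcript of a symbol, found for 99.5% of tested genes. Transcript length in the models was taken, up to a constant, from the ratio of deposited counts to RPKM, for all 11501 tested genes.

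Named genes were all 10 members, every listed gene called in a genotype comparison or in the difference of responses, the 2 highest and 2 lowest of each list called for LPS in the wild-type, the 5 nearest patterns of *Axl* and *Mertk*, and called markers, of which some are not reported here. Alternatives were DESeq2 1.42.0 size factors and Wald test, library size without TMM, no filter, at least 10 counts in every library, only the 4 libraries of a comparison, a replicate block, limma 3.58.1 on log2(RPKM + 1) and log2(RPKM + 0.1), leaving out each library or both KO-Ctrl libraries, and a transcript length spline with 5 degrees of freedom. A length and GC spline was added after seeing the data. The model code was tested on simulated data. Figures used Python 3.11.15 and matplotlib 3.10.9.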

Additional observations from a re-analysis of the deposited data

Results flagged for a closer look

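The LPS response of *Pros1* was called different between the genotypes, with a log2 difference of 1.46 (SE 0.384, adjusted p = 0.046, edgeR interaction test), 1.37 in *Tut7*-/- and -0.08 in wild-type BMDMs. The call held in 8 of 18 alternatives, and with length and GC content in the model the difference was 0.60 (adjusted p = 0.19). The untreated *Tut7*-/- libraries at 14.6 and 26.8 CPM were the lowest of the 8, and the transcript has a GC content of 43.4%. The 1014 genes in the bin of like GC content (median 43.1%) had a median difference of 0.895, with an upper quartile of 1.35.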

How the results depend on the processing

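The calls for LPS in each genotype and for genotype without LPS stayed within 1.5 times of 7, 10 and 8 of the 10 genes under every alternative run (leaving out 1 library gave 6 to 7, 9 to 10 and 7 to 9). The counts for genotype with LPS (2) and for the difference of responses (1) did not. For genotype with LPS the count was 5 with no filter on low counts, 7 in a fit of the 4 libraries alone, 4 with the replicate block, and 5 each without both KO-Ctrl libraries, with the length spline and with the length and GC spline. Leaving out 1 library gave 0 to 7, with 0 without WT-LPS replicate 1, WT-LPS replicate 2 or KO-LPS replicate 2, 1 without KO-LPS replicate 1, and 6 and 7 without KO-Ctrl replicate 1 and 2. For the difference of responses it was 0 with DESeq2 size factors, with library size, with at least 10 counts in every library and with the length and GC spline, 2 with no filter and 6 with the length spline. Leaving out 1 library gave 0 to 5, with 5 without KO-Ctrl replicate 2. The cause was not tested. Over the single values of the 10 genes 863 of 951 kept their side of the threshold, 37 lost and 51 gained a call, and none that was called reversed.

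Whether the replicate numbers pair the libraries is not in the labels. The correlations of their deviations ran from -0.198 (KO-Ctrl with KO-LPS) to 0.31 (WT-Ctrl with KO-Ctrl). The replicate block left the other 4 counts at 7, 10, 8 and 1. In fits without 1 library the library left alone takes the spread of the other groups. With 2 libraries a group, differences near 1 log2 unit could be missed. Between the genotypes with LPS, *Lrp1* (1.07) and *Stab1* (0.94) were not called. The SE there was largest for *Tyro3* (0.57) and *Mertk* (0.405).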
